A study of Drosophila melanogaster with 3 samples.

Results

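The 10 genes described here belong to the epidermal growth factor (EGF) receptor pathway of Drosophila melanogaster. They are the ligand genes spi and vn, the ligand-processing protease gene rho, the receptor gene Egfr, the exchange factor gene Sos, the transcription factor genes pnt, aop and cic, and the inhibitor genes aos and sty. They were listed by name, and all 10 were found among the 13945 protein-coding genes annotated on the chromosome arms analysed. The measurement is chromatin immunoprecipitation followed by sequencing (ChIP-seq) of the protein CG6765 in whole embryos aged 0 to 24 h and of mixed sex. The embryos came from a stable transgenic line that carries CG6765 with enhanced green fluorescent protein (eGFP) at its C terminus. All 3 biological replicates carry this fusion and form 1 group, and the control experiment named in the labels is not analysed here. The description gives an antibody against GFP, whereas the antibody label gives CG6765. A whole embryo mixes tissues and ages, so strong binding in few cells and weak binding in many cannot be told apart.

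Each peak has a summit, the position of highest signal, and a signal value of the authors with no stated unit. Signal is used here only to order summits within a list, with rank 1 the strongest. The authors' thresholded list holds 3816 peaks that passed their reproducibility step, with signals from 135 to 2699 and a median of 193. They are the 3816 strongest of 30000 candidates called on the pooled replicates, a list that also includes background. Each replicate has its own list of 30000 candidates, so ranks can be set side by side between replicates. The number of reads is unknown, and the 95% Wilson intervals given with shares cover counting error only. Intervals on shares of summits treat summits as independent, which those of the same gene may not be, so they may be too narrow. Each gene was given a window made of its body and 5 kb on either side.

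In the fly, the EGF receptor is a tyrosine kinase that passes its signal through Ras, Raf and the MAP kinase to a set of transcription factors in the nucleus. Spi is made as an inactive membrane-bound precursor, is moved out of the endoplasmic reticulum by the protein of S, and is then cut by Rhomboid, the product of rho, while Vn is secreted without needing that cut. Pnt activates target genes, whereas Aop (also called Yan) and Cic are repressors that the MAP kinase removes or inactivates. Argos, the product of aos, binds Spi outside the cell, and Sprouty, the product of sty, acts inside it. In the embryo the pathway patterns the ventral ectoderm and acts in the trachea, the muscle precursors and the nervous system.

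Of the 10 genes, 8 had at least 1 thresholded summit in their window (80.0%, interval 49.0% to 94.3%), and rho and Sos had none. The same share was 42.9% over all protein-coding genes. Over the 3413 protein-coding genes whose window was at least as long as the shortest of the 10 windows, 15.1 kb, it was 57.0%. The median window of these 3413 genes was 21.6 kb, beside 33.0 kb for the 10, so they match the 10 only partly in length. A start peak, meaning a thresholded summit no farther than 500 bp from an annotated start of the gene, was found at spi, aos, pnt and aop. These are 4 of 10 (40.0%, interval 16.8% to 68.7%), beside 17.0% of all protein-coding genes and 28.5% of those with long windows. No test was run on these shares, since the 10 genes were chosen with earlier results of these data known. Their windows held 24 thresholded summits and 138 weaker candidates, and aop with 8 and pnt with 6 held most of the thresholded ones.

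**Figure D1:**
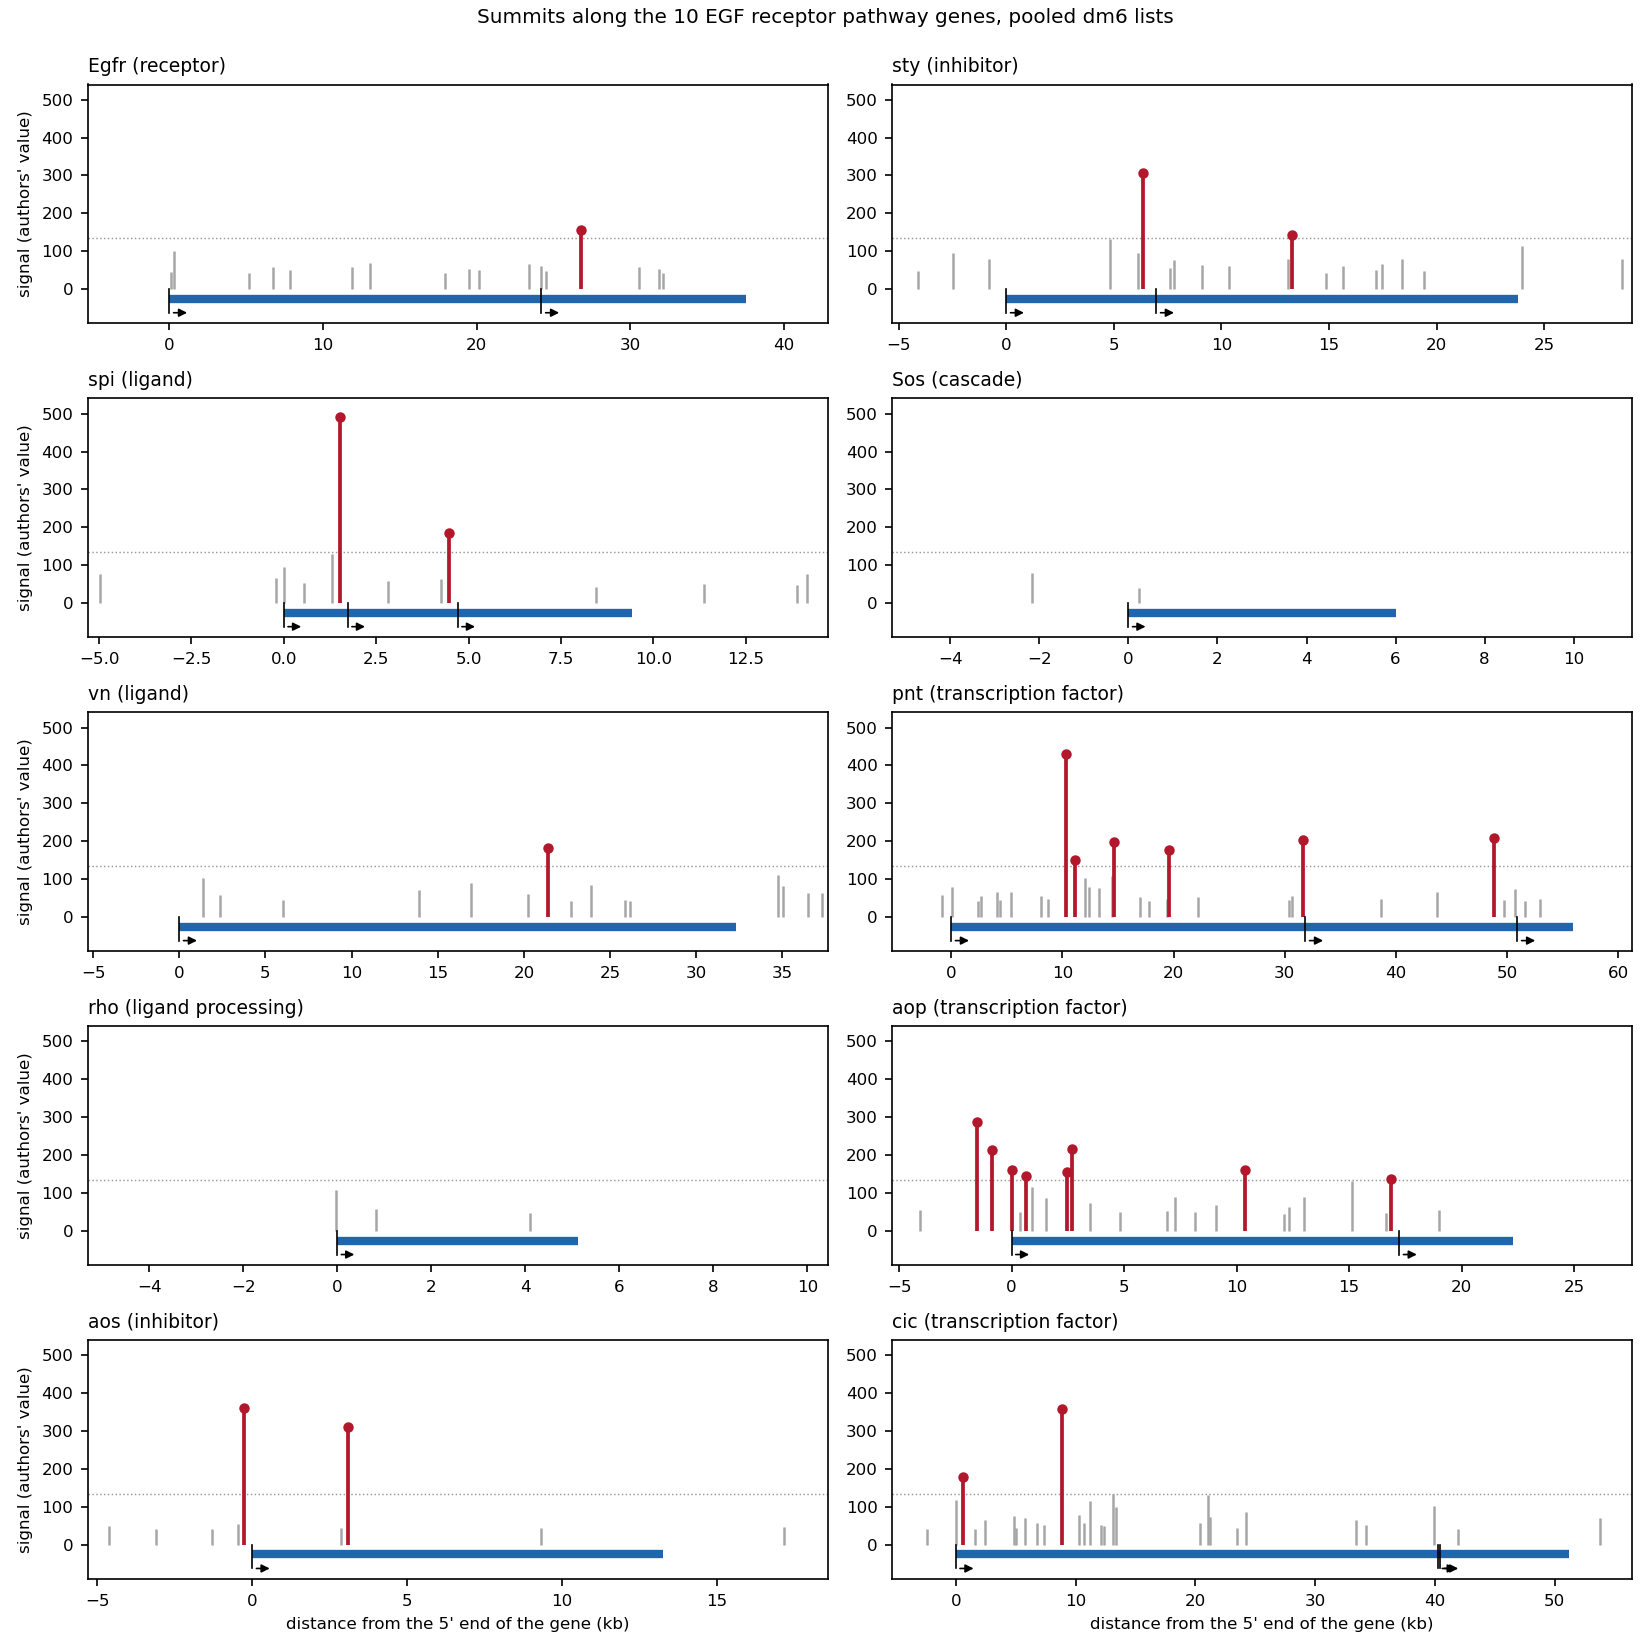
Candidate summits of the pooled list along the 10 genes, 1 panel per gene, by distance in kb from the 5′ end of the gene in the direction of transcription (x axis) and by the authors' signal value, which has no unit (y axis). Red stems with points are the 24 thresholded summits, grey stems the 138 weaker candidates, blue bars the gene bodies, black ticks with arrows the start sites, and the dotted line a signal of 135. The aop window holds 8 red stems and the pnt window 6, while rho and Sos show none.

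The sequences below are the 51 bases centred on thresholded summits, read from the RefSeq sequence of dm6 on the plus strand and shown 5′ to 3′. The first set shows the start peaks that lie outside UTRs, because their summits lie within 500 bp of the starts of named pathway genes.
spi, 222 bp upstream of the spi-RG start, chr2L:19575784-19575834: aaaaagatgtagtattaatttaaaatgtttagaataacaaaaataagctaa
spi, 225 bp upstream of the spi-RB and spi-RE start, chr2L:19572810-19572860: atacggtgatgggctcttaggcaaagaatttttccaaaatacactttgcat
aos, 255 bp upstream of the start, chr3L:16483880-16483930: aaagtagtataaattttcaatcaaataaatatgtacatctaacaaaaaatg
pnt, 221 bp upstream of the pnt-RD start, chr3R:23314511-23314561: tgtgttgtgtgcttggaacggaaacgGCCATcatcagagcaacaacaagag
aop, 365 bp upstream of the aop-RA and aop-RD start, chr2L:2161867-2161917: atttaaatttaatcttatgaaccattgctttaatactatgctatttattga
Capitals mark GCCAT, the core of the word bound by Pleiohomeotic, a Polycomb-group factor, as found on either strand. The stretches at spi-RG, at aos and at the downstream aop start are rich in A and T, with GC contents of 15.7%, 17.6% and 19.6%, whereas that of pnt-RD has 49.0%.

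The second set shows the strongest summit away from start sites in 5 of the genes, and last a summit of aop that carries a word of the pathway's own factors.
pnt, intron, 10352 bp downstream of the pnt-RB start, chr3R:23335790-23335840: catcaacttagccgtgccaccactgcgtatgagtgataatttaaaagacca
cic, intron, 8833 bp downstream of the cic-RD start, chr3R:20261578-20261628: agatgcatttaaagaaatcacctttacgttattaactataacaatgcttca
aos, intron, 3089 bp downstream of the start, chr3L:16480536-16480586: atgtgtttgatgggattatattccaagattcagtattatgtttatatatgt
sty, intron, 631 bp upstream of the sty-RB start, chr3L:3418567-3418617: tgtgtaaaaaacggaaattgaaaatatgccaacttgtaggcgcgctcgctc
aop, intergenic, 1542 bp upstream of the aop-RB start, chr2L:2180271-2180321: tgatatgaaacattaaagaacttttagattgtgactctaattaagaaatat
aop, intron, 6834 bp upstream of the aop-RA start, chr2L:2168336-2168386: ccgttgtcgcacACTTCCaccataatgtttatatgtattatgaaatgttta
Capitals in the last mark GGAAGT read on the other strand, an extended Ets core as bound by Pnt and Aop. It was the only one of the 24 thresholded summits with this word within 50 bp.

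The ligand gene spi (FBgn0005672; 2L, 19567900 to 19577315, minus strand) has 3 start sites in a gene of 9.42 kb. Its stronger thresholded summit, at 19575809, had a signal of 490 and rank 310 in the pooled list, the best rank in any of the 10 windows. It lay 222 bp upstream of the start of spi-RG, in a peak from 19575638 to 19575867, and 1506 bp downstream of the outermost start. In replicates 2 and 3 a summit within 100 bp had ranks 301 and 209, and in replicate 1 the nearest summit was 104 bp away with rank 514. The position thus ranked high in all 3 replicates, although the replicate 1 summit fell just outside the 100 bp used to match summits. The weaker summit, at 19572835, had signal 186 and rank 2064, 225 bp upstream of the shared start of spi-RB and spi-RE. Its replicate ranks were 1175 in replicate 1 and 7786 in replicate 3, and in replicate 2 the nearest summit, of rank 3966, lay 114 bp away. These replicate ranks are much further apart than those at spi-RG. The outermost start, of spi-RA and spi-RF, had only a weaker candidate, of rank 7098. In all, the window held 11 weaker candidates, with signals from 42.2 to 130.

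The other ligand gene, vn (FBgn0003984; 3L, 5813338 to 5845664, minus strand), had no candidate within 500 bp of its start site in the pooled list or in any replicate. Its 1 thresholded summit, at 5824259 with signal 183 and rank 2128, lay in an intron 21405 bp downstream of the start. The replicate ranks there were 9558, 1089 and 4244 for replicates 1, 2 and 3, so the site stood among the 3816 strongest in replicate 2 alone. The 14 weaker candidates of the vn window had signals from 41.5 to 111.

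The protease gene rho (FBgn0004635; 3L, 1463811 to 1468944, plus strand) had 3 candidates and no thresholded summit, and the nearest one was 73380 bp from its start site. The strongest candidate, at 1463794 with signal 107 and rank 5712, lay 17 bp upstream of the start site. It had rank 6232 in replicate 2 and rank 4870 in replicate 3, and no summit within 100 bp in replicate 1. The other candidates, in an intron and in the 3′ UTR, had ranks 15977 and 23082. All 3 candidates also lay within the gene Ptp61F.

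The receptor gene Egfr (FBgn0003731; 2R, 21522420 to 21559977, plus strand) has 2 start sites in a gene of 37.6 kb. Its 1 thresholded summit, at 21549192 with signal 157 and rank 2825, lay in an intron 2549 bp downstream of the start of Egfr-RB. The ranks in replicates 2 and 3 were 3272 and 2511, and in replicate 1 the nearest summit lay 103 bp away with rank 2195. All replicates thus had a summit of similar rank there. Both Egfr start sites had only weaker candidates, of rank 6477 at Egfr-RA and 14421 at Egfr-RB. Egfr-RA also varied between replicates, with ranks 20304, 10546 and 4215.

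Sos (FBgn0001965; 2L, 13813816 to 13819824, plus strand), which encodes the factor that loads Ras with GTP, had the fewest candidates of the 10 genes. Its window held 2, of ranks 9689 and 29273, with signals of 78.6 and 41.3. The stronger, 2156 bp upstream of the start, had no replicate summit within 100 bp and lay at the start sites of the neighbours Adat1 and CG16865. The weaker, 238 bp downstream of the Sos start, was matched in replicate 3 alone, with rank 18640.

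The activator gene pnt (FBgn0003118; 3R, 23290231 to 23346167, minus strand) is the longest of the 10 genes, with 55.9 kb and 3 start sites. Its strongest summit, at 23335815 with signal 431 and rank 416, lay in an intron 10352 bp downstream of the outermost start, that of pnt-RB. In replicates 2 and 3 it had ranks 434 and 342, and in replicate 1 a summit of rank 457 lay 109 bp away. The replicates gave nearly the same rank at or within 109 bp of this intronic position. The start peak of pnt, at 23314536 with signal 204 and rank 1714, lay 221 bp upstream of the pnt-RD start, with replicate ranks 3872, 2766 and 1120. The start of pnt-RB had rank 9424 as its best candidate, and the shared start of pnt-RC and pnt-RE had rank 10677. A summit 2082 bp upstream of the latter, at 23297320, had signal 209, rank 1650 and replicate ranks 1535, 2089 and 2215. The other 3 pnt summits were intronic, at 23326546, 23331513 and 23335035, with signals of 177, 198 and 151. Of the 6 pnt summits, 3 had a summit within 100 bp in every replicate list, and the other 3 lacked one in replicate 1. The summit at 23331513 also lacked one in replicate 3, so it was matched in replicate 2 alone, with rank 1556. The nearest summit to it was 126 bp away in replicate 1, with rank 8508, and 211 bp away in replicate 3, with rank 1310. At 23335035 the nearest replicate 1 summit was 671 bp away. Replicates 1, 2 and 3 thus matched 3, 6 and 5 of the pnt summits.

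The repressor gene aop (FBgn0000097; 2L, 2156484 to 2178754, minus strand) held 8 thresholded summits in a window of 32.3 kb, the most of the 10 genes. It was among 31 protein-coding genes with 8 or more. Of these summits, 6 lay within 4241 bp around the outer start site, shared by aop-RB, aop-RC and aop-RE. The strongest, at 2180296 with signal 288 and rank 878, was 1542 bp upstream of that start, with replicate ranks 1252, 760 and 1000. The next upstream summit, at 2179605 with signal 213 and rank 1579, was 851 bp from the start and had replicate ranks 1496, 1021 and 6965. The start itself had a summit 36 bp downstream, at 2178718 with signal 161, rank 2677 and replicate ranks 2186, 6192 and 1835. It was followed by a summit in the 5′ UTR 643 bp downstream, at 2178111 with signal 144 and rank 3352. The remaining 2 of the run, at 2176055 and 2176276, were intronic with signals of 217 and 156. Their summits were 221 bp apart in overlapping peak intervals, the only such pair among the 24, so they may not be separate sites. The inner start, of aop-RA and aop-RD, had its own start peak at 2161892, with signal 137 and rank 3693, close to the threshold. In replicate 1 the nearest summit there was 401 bp away, and replicates 2 and 3 gave ranks 4753 and 1419. The eighth summit, at 2168361 with signal 160 and rank 2697, lay in an intron. Of the 8 aop summits, 7 had a summit within 100 bp in every replicate list.

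The repressor gene cic (FBgn0262582; 3R, 20252770 to 20303942, plus strand) had 2 thresholded summits and no start peak. The stronger, at 20261603 with signal 358 and rank 587, lay in an intron 8833 bp downstream of the start of cic-RD and cic-RG. Its ranks were 416, 812 and 780, so it stood among the strongest summits of all 3 replicates. The other, at 20253366 with signal 180 and rank 2178, lay in the 5′ UTR 596 bp downstream of the same start, just beyond the 500 bp that define a start peak. Its replicate ranks were 1929, 3371 and 3819. That start also had a weaker candidate 34 bp downstream, of rank 4841, with replicate ranks 9094, 8467 and 2778. The inner start of cic-RH had a candidate of rank 6032, and that of cic-RA, cic-RB and cic-RC had none in any list. The cic window also held 26 weaker candidates, with signals from 41.9 to 134, and the strongest of them ranked 3847, close to the threshold. No replicate list had a summit within 100 bp of that candidate.

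The inhibitor gene aos (FBgn0004569; 3L, 16470386 to 16483650, minus strand) had 2 thresholded summits, both of which stood among the 3816 strongest summits of every replicate. The start peak, from 16483677 to 16484132 with its summit at 16483905, had signal 360 and rank 579. Its replicate ranks were 576, 486 and 914, close to each other. The second, at 16480561 with signal 311 and rank 750, lay in an intron 3089 bp downstream and had ranks 539, 718 and 2199. The aos gene lies inside an intron of CG33158, on the opposite strand, so both summits are also within that gene. The 7 weaker candidates of the window had signals of at most 55.8, the lowest maximum of the 10 genes.

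The inhibitor gene sty (FBgn0014388; 3L, 3401153 to 3424935, minus strand) had 2 intronic thresholded summits and no candidate at either start site in the pooled list. The stronger, at 3418592 with signal 307 and rank 769, was 631 bp upstream of the inner start, of sty-RB, and 6343 bp downstream of the outer one, of sty-RC. Its ranks were 1187, 643 and 992 in the 3 replicates. The weaker, at 3411648 with signal 144 and rank 3334, was 6313 bp downstream of the sty-RB start. In replicates 1 and 3 it had ranks 4059 and 3793, and in replicate 2 a summit of rank 4433 lay 170 bp away. That replicate 2 summit lay only 30 bp from a weaker pooled candidate, at 3411848. Thus 1 sty site ranked high in every replicate, and the other lay near the threshold in replicates 1 and 3 and was unmatched in replicate 2.

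Across the 10 genes there are 19 annotated start sites. Of these, 6 had a thresholded summit within 500 bp (31.6%, interval 15.4% to 54.0%), beside 16.1% of the start sites of all protein-coding genes. A pooled candidate of any rank lay within 500 bp of 15 of them (78.9%, interval 56.7% to 91.5%), beside 50.0%. By gene, 8 of the 10 had such a candidate, beside 49.3% of all protein-coding genes, and vn and sty had none. The alternative starts of 1 gene differed: at spi-RG the best rank was 310, at spi-RB 2064 and at spi-RA 7098. At pnt, the inner start of pnt-RD had rank 1714 while the starts on either side had ranks 9424 and 10677. At aop both starts had start peaks, of ranks 2677 and 3693. No start site of any other gene lay within 500 bp of the 24 thresholded summits, so none of the start peaks was shared with a neighbour.

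**Figure D2:**
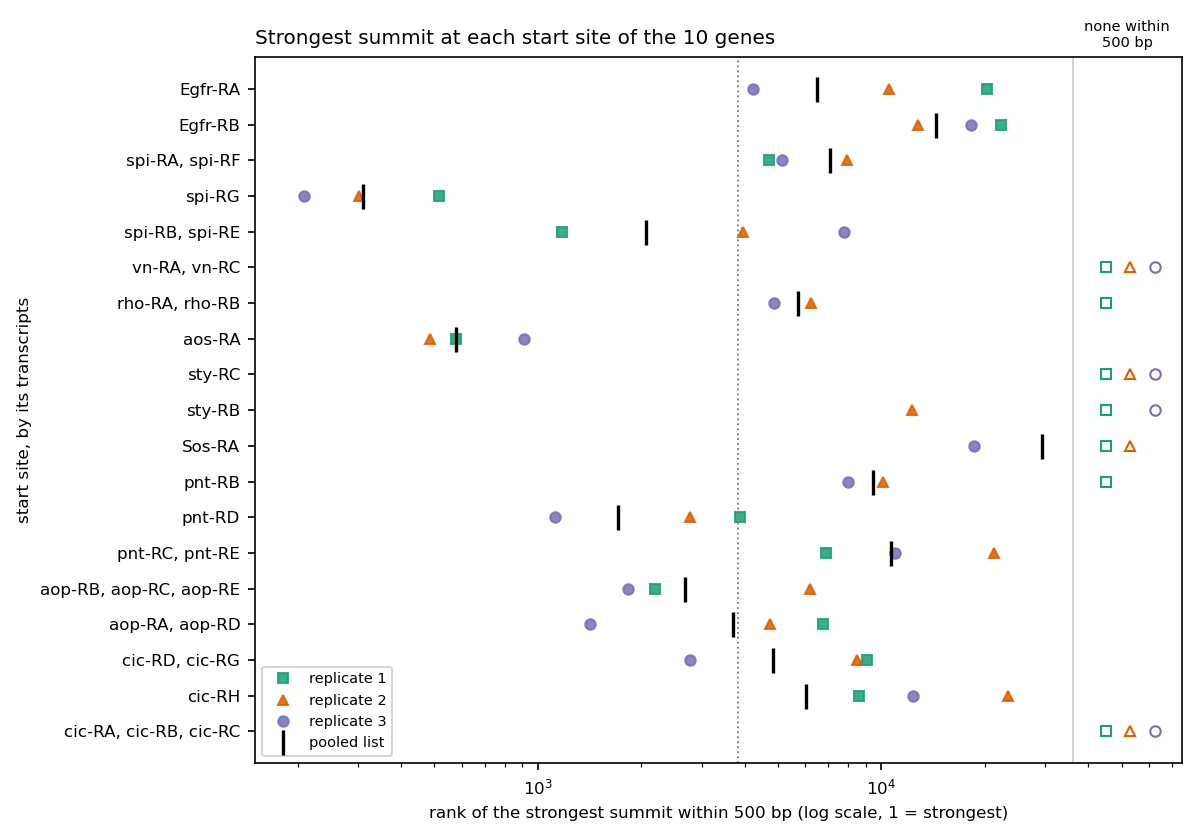
Rank of the strongest summit within 500 bp of each of the 19 start sites (y axis, by transcript) in the pooled list (black bars) and the lists of replicates 1, 2 and 3 (squares, triangles and circles), on a logarithmic x axis with stronger summits to the left. The dotted line marks rank 3816, and open symbols on the right mark replicates with no summit within 500 bp. The starts of spi-RG and aos lie left of the line in every list, and the vn start has open symbols only.

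The replicates were then read separately, each with its own 3816 strongest summits. A strong summit at a start site was found for 3, 3 and 5 of the 10 genes in replicates 1, 2 and 3, beside 15.5%, 17.0% and 17.0% of all protein-coding genes. The spi and aos starts had one in all 3 replicates, those of pnt and aop in 2, and that of cic in 1, while Egfr, vn, rho, sty and Sos had none. In the windows, the replicates held 20, 19 and 27 strong summits (22.0 ± 4.36, SD, n = 3), in 8, 8 and 7 of the genes. The matching shares were 40.8%, 43.4% and 42.8% of all protein-coding genes, and 57.5%, 56.5% and 56.8% of those with long windows. The count for aop was 6, 4 and 7, and that for pnt 3, 6 and 6. For cic it was 2, 2 and 6, so replicate 3 held more strong cic summits than the others. Neither rho nor Sos had a strong summit in any replicate.

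Of the 24 thresholded summits, 16 had a summit within 100 bp in all 3 replicate lists (66.7%, interval 46.7% to 82.0%), beside 77.3% of all thresholded summits. A further 7 had one in 2 lists and 1 in 1 list. Only 6 stood among the 3816 strongest of all 3 replicates (25%, interval 12% to 44.9%), beside 40.3% of all thresholded summits. These were the 2 at aos, those at sty 3418592, pnt 23297320 and cic 20261603, and aop 2180296. The spi-RG and pnt 23335815 summits, although stronger in the pooled list, are not among them because in replicate 1 the nearest summit lay 104 and 109 bp away. Of the 138 weaker candidates, 14 were found in all 3 replicate lists (10.1%), beside 11.3% of all weaker candidates. Another 16 were found in none (11.6%), beside 11.1%, so both shares were near those of the whole list.

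**Figure D3:**
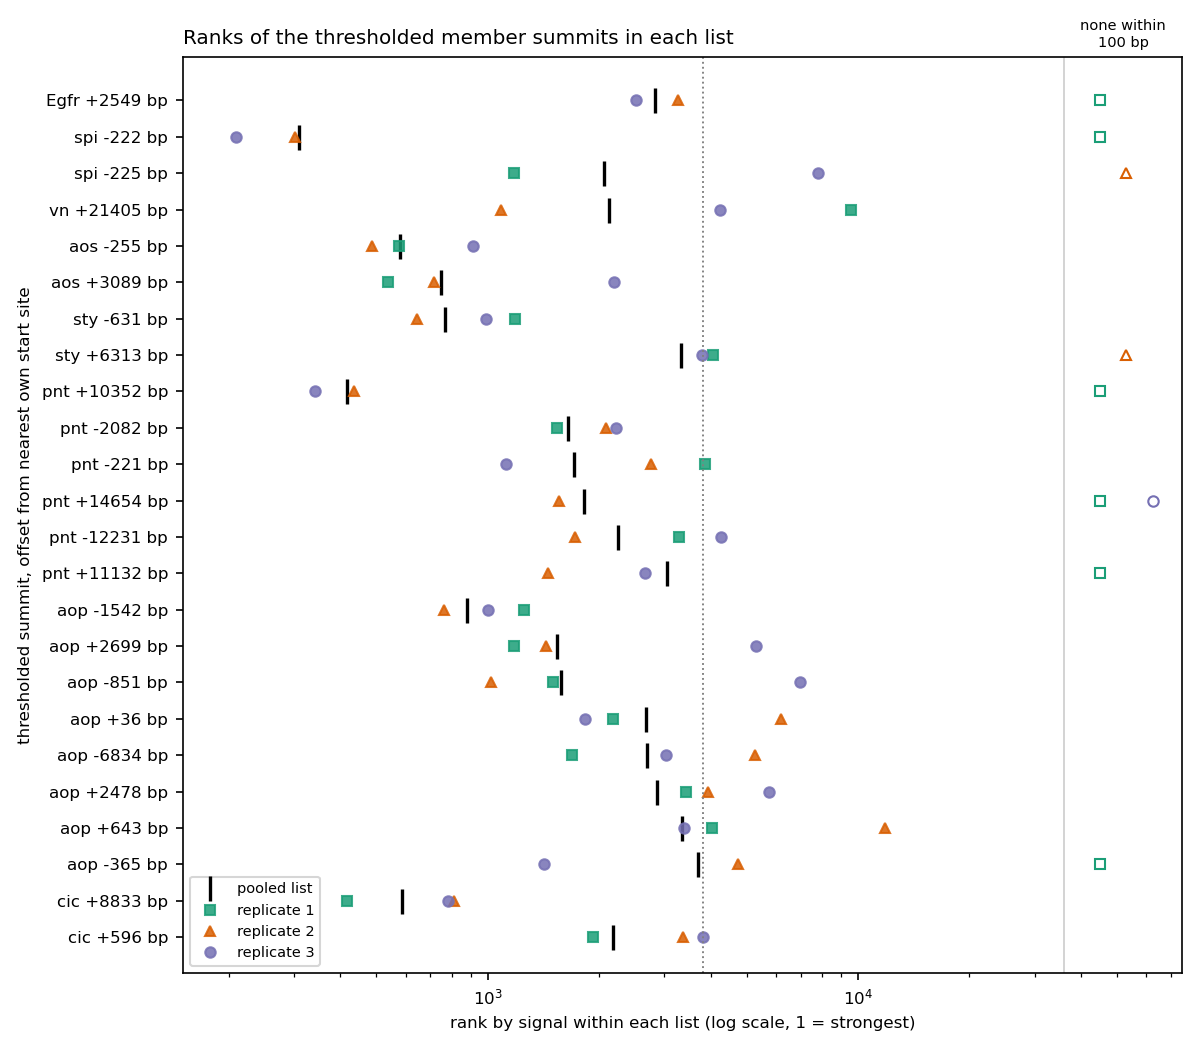
Ranks of the 24 thresholded summits (y axis, by gene and offset in bp from the nearest own start site) in the pooled list (black bars) and in the lists of replicates 1, 2 and 3 (squares, triangles and circles), on a logarithmic x axis. The dotted line marks rank 3816, and open symbols on the right mark replicates with no summit within 100 bp. The points of aos 255 bp upstream run from 486 to 914, while those of vn run from 1089 to 9558.

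By position, 14 of the 24 thresholded summits were intronic (58.3%, interval 38.8% to 75.5%), beside 31.8% of all 3816. Only 6 were in the promoter class, within 500 bp of a start site (25%, interval 12% to 44.9%), beside 56.7%. The 5′ UTR class held 2, at aop and cic (0.760% of all), and the intergenic class held 2, both upstream of aop (8.65% of all). The 10 genes are long, and among the 3159 thresholded summits in windows of at least 15.1 kb the promoter share was 55.0% and the intron share 37.4%. The weaker candidates had 25 promoter summits of 138 (18.1%) and 92 intronic ones (66.7%), beside 27.7% and 44.7% of all weaker candidates. Both sets of summits in the 10 windows thus held more intronic and fewer promoter positions than the full lists. The median signal of the 24 was 192, beside 193 for the whole thresholded list, so these summits were of ordinary strength.

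Per length of window, the 10 genes together had 67.3 thresholded summits per Mb, beside 43.6 over all protein-coding genes and 37.9 over those with long windows. Without aop the density was 49.3 per Mb, and without aop and pnt it was 38.7, so the higher density rested on these 2 transcription factor genes. They were left out after their counts, the highest of the 10, were seen, and a fall was fixed by that choice. The density of all candidates was 454 per Mb, beside 270 and 266, and was still 414 without aop and pnt. The candidates include background, so the 2 densities do not measure the same thing. Windows of different genes can overlap, and a summit then counts for each gene.

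**Figure D4:**
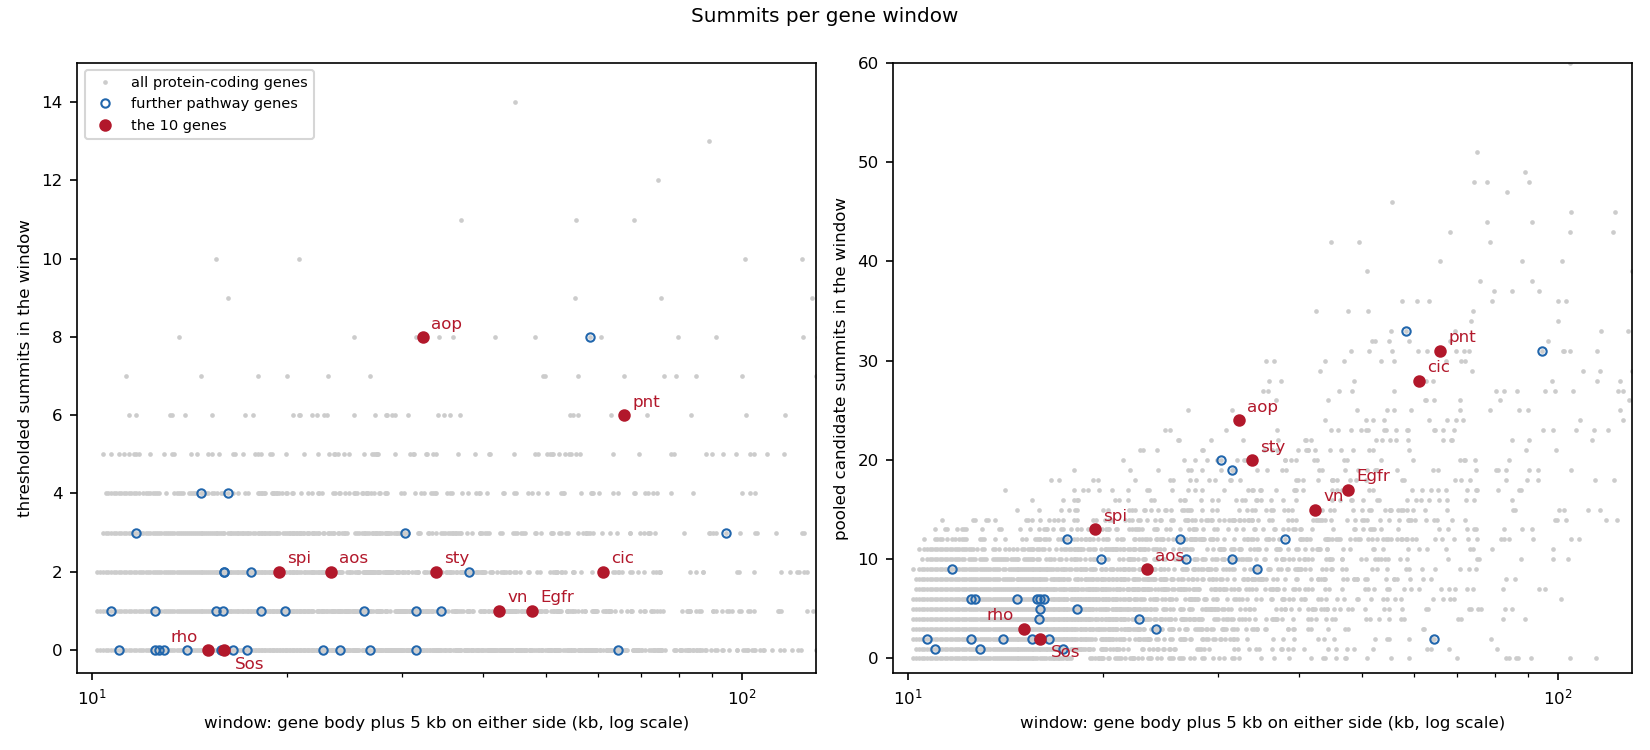
Number of thresholded summits (left panel, y axis) and of pooled candidate summits (right panel, y axis) in each gene's window against the window's length in kb (x axis, logarithmic) for all protein-coding genes (grey), the 34 further pathway genes (blue circles) and the 10 genes (red, labelled). The axes leave out 56 grey genes on the left and 59 on the right. On the left aop with 8 and pnt with 6 lie above the other 8 genes, which have between 0 and 2.

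The pattern of aop was set beside those of other genes by window length, number of thresholded summits and number of candidates, each divided by its SD over the 13945 genes. The 3 nearest were atos with a distance of 0.206, CG14434 with 0.586 and msn with 0.702. Each had 8 thresholded summits, with 25, 23 and 22 candidates, beside 24 for aop. The likeness concerns these counts only.

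A further 34 genes of the pathway were listed by role: other ligands and their processing, the cascade, other inhibitors and nuclear partners. Of these, 19 had a thresholded summit in their window (55.9%, interval 39.5% to 71.1%) and 8 had a start peak (23.5%, interval 12.4% to 40.0%), beside the 42.9% and 17.0% given above for all genes. The start peaks in the upstream part of the pathway were at S, which moves Spi out of the endoplasmic reticulum (rank 2423), and at the adaptor genes drk (rank 2503) and Shc (rank 264). In the cascade they were at Ras85D, the Ras GTPase (rank 2752), and ave, which encodes a scaffold component (rank 2937). Each of these 5 summits also lay within 500 bp of the start of another gene, respectively ast, mars, Atat, Rlb1 and Rpn6, so they cannot be given to the pathway gene alone. The start peaks without such a neighbour were at Mkp3, a phosphatase of the MAP kinase, at edl, a partner of Ets factors, and at gro, a corepressor that the MAP kinase phosphorylates. The gro summit had signal 490, rank 308 and replicate ranks 209, 401 and 316. At Mkp3 the outer start had a summit of rank 407, 494 bp upstream, with replicate ranks 393, 397 and 458, and the inner start had a summit of rank 2171. The edl summit was weaker, with rank 3241 and replicate ranks 4153, 3242 and 11592. Among the 5 summits shared with a neighbour, replicate ranks were 217, 299 and 304 at Shc and 3766, 3282 and 3672 at Ras85D. They were further apart at drk, with 4603, 6337 and 1049, and at ave, with 3295, 2635 and 7972. The S summit had ranks 1948 and 2421 in replicates 1 and 2 and no match within 100 bp in replicate 3. The kinase gene Raf had 8 thresholded summits, as many as aop, the strongest of rank 182 in an intron 2248 bp downstream of its start. None lay within 500 bp of a Raf start site, and the one upstream of the gene, of rank 210, lay 344 bp from the start of the neighbour CG2865. The Raf summits at 2296270 and 2296470 had overlapping peak intervals, so they may not be separate sites. The gene of the MAP kinase itself, rl, had no thresholded summit and 2 candidates in a window of 64.5 kb. The nearest thresholded summit was 3444478 bp from an rl start site. The stretch without thresholded summits thus reached far beyond rl, and the absence is not particular to this gene.

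The words searched within 50 bp of the summits, on either strand, were GAGAG (GAGA factor), CAGGTAG (Zelda), TGAATGAA and TCAATGAA (Cic), GGAAGT (Ets factors), TATCGATA (DREF), CGATA (BEAF-32, a word that also lies inside TATCGATA), GCCAT (Pleiohomeotic) and CACGTG (E-box). GCCAT was near 5 of the 24 summits (20.8%), beside 14.6% of all thresholded and 19.2% of other candidate summits. GAGAG was near 4 (16.7%), beside 13.5% and 12.8%. GGAAGT was near 1 summit, beside 3.83% of all thresholded summits. The BEAF-32 word CGATA was near 1, beside 14.5%, and the E-box was near 1, beside 1.10%. CAGGTAG, both Cic words and TATCGATA were near none, and they were near 0.393%, 0.891%, 0.393% and 1.39% of all thresholded summits. The GC content within 50 bp of the 24 summits had a median of 36.1% and ran from 17.8% to 55.4%, beside a median of 36.6% for all thresholded and 42.6% for other candidate summits. Within 100 bp GAGAG was near 11 of the 24 (45.8%), beside 27.6% of all thresholded summits, and TGAATGAA was near 2 (8.33%), beside 1.6%. CGATA, fewer at 50 bp, was near 6 of the 24 (25%) within 100 bp, beside 27.7%, so the lower count depended on the distance. GCCAT was also near 6 of the 24 within 100 bp, beside 26.8% of all thresholded and 35.2% of other candidate summits. The higher share of GCCAT at 50 bp thus depended on the distance too. A word here is only a match of letters.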

How the data were processed

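ChIP-seq peak lists of 3 replicates of CG6765-eGFP embryos were analysed, on dm6 only; the dm3 lists were not used. The authors deposited a candidate list per replicate, a pooled candidate list and a thresholded list, per the labels. In each the authors give a signal value (no unit stated), the −log10 of a q-value and the summit offset. Read depth is unknown, and aligner, peak caller and threshold level were not given in the sources used here.

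Positions count from 1. Gene models came from Ensembl release 115 (BDGP6.54) and sequences from the RefSeq dm6 genome. A summit within 500 bp of any start site was classed as promoter, and otherwise by UTR, then exon, then intron, then intergenic position. Replicate summits within 100 bp were matched. Intervals are Wilson 95% intervals. With 1 group there is no contrast and no test was run. The scripts used Python 3.11.15, numpy 2.4.6, pandas 2.3.3, scipy 1.17.1 and matplotlib 3.10.9 and were tested on simulated data.

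The members, the 34 further genes and the words were chosen with earlier results of these data known. The genes named are the 10 members, further genes with a start peak, neighbours whose start site lies within 500 bp of such a summit, and the 3 genes most like the member with the most thresholded summits. Raf, rl, CG2865 and the genes neighbouring Sos were added after their values were seen. Alternatives were other flanks, start site distances, match distances, numbers of summits, motif distances and each replicate alone or left out.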

Additional observations from a re-analysis of the deposited data

How the results depend on the processing

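Gene bodies alone and flanks of 2 or 10 kb each left 8 of the 10 genes with a thresholded summit in the window. The share of all protein-coding genes was then 11.8%, 30.5% and 56.4%, and that of genes with long windows 33.0%, 48.6% and 67.1%. Among the 1908 strongest thresholded summits 6 genes had one, beside 28.2% and 38.6%. With a start site distance of 250 bp 3 genes had a start peak, beside 13.5% of all genes and 21.7% of those with long windows, and with 1000 bp 6 had one, beside 19.7% and 33.1%. With the 1908 strongest, 3 genes had a start peak, beside 9.44% and 15.3%. The 24 thresholded summits in the windows fell to 12 among the 1908 strongest. Without aop, a setting chosen after seeing the data, there were 16. The 8 further genes with a start peak became 3 among the 1908 strongest, beside the same 9.44%, and 5 with replicate 3 alone, beside 17.0%.

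The summits found in all 3 replicate lists were 11 of 24 with a match distance of 50 bp and 21 with 200 bp, instead of 16, beside 48.7% and 92.2% of all thresholded summits. Leaving out replicate 1 gave 21 of 24, beside 86.2%. Leaving out replicate 2 gave 18, beside 81.7%, and leaving out replicate 3 gave 16, beside 83.9%. The share in the windows was thus below that of all thresholded summits without replicate 2 or 3, but not without replicate 1. Replicate 1 also had the fewest candidates in the windows, 108, beside 154 and 158 in replicates 2 and 3. Those among the strongest of all replicates, 6, became 3 with a match distance of 50 bp (27.5% of all thresholded summits), 14 when 7632 summits per replicate were used (61.6%) and 2 when 1000 were used (14.9%). Leaving out each replicate gave 8 to 11, beside 49.0% to 53.3%, since a summit then needs a match in only 2 lists. No paired analysis was possible because there is 1 group.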

Other observations

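Other genes of the pathway outside the start sites also held strong summits. Krn, which encodes another Spi-like ligand, had 4 thresholded summits in a window of 14.7 kb, the strongest of rank 963 and 1891 bp upstream of its start. That summit was nearer to the start of the neighbour CG7484, at 1554 bp, as was the other upstream one. The Krn summits in the gene body also lay within Ndfip, so they cannot be given to Krn alone. At dos, an adaptor gene, 4 thresholded summits lay in a window of 16.2 kb, and the strongest, of rank 240, was 13 bp from the start of the neighbour RpL8. The strongest summit in the cnk window, of rank 138, lay 196 bp from the start of the neighbour l(2)k01209. These genes were chosen after their values were seen.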
